A study of Homo sapiens with 12 samples.

Results

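The let-7 family was followed in 12 small RNA libraries made from DROSHA-knockout HCT116, an established colorectal cancer line. The members are the 5p arms let-7a, let-7b, let-7c, let-7d, let-7e, let-7f, let-7g and let-7i and miR-98-5p. These 9 names were taken from the 1286 mature names of the count table by name, with earlier results of these data known. Where a name stood under several hairpins, the line with most reads was kept. The knockout cells received 4.5 µg of pXC-NLS-DG4 together with 4.5 µg of a pCK plasmid. That pCK plasmid was empty, coded for wild-type DROSHA, coded for the mutant DROSHA_m4, or coded for DROSHA with a belt deletion. Each of the 4 groups has 3 libraries, numbered as repeats. All groups share the DROSHA knockout and the pXC-NLS-DG4 plasmid, so no library comes from unedited cells. What m4 changes and what pXC-NLS-DG4 codes for are not given in the labels, and neither is the time of harvest. Nothing says that the repeats are separate cultures, so p-values measure the spread between these libraries, which may be technical.

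DROSHA is the nuclear RNase III enzyme of the Microprocessor complex. It cuts primary miRNA transcripts to release the precursor hairpin, which DICER then cuts in the cytoplasm. The let-7 miRNAs promote differentiation, restrain RAS, MYC, HMGA2 and LIN28, and are often low in tumours. Their precursors fall into 2 classes by the 3′ end that DROSHA leaves. Group I precursors (let-7a-2, let-7c and let-7e) carry the usual 3′ overhang and can go straight to DICER. Group II precursors, which are the other let-7 hairpins, carry a shorter overhang and are first mono-uridylated by terminal uridylyl transferases. let-7c and let-7e were therefore compared with let-7b, d, f, g and i. let-7a comes from both kinds of hairpin, and miR-98 was described on its own.

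The mature sequences below show how close the members are to each other, with the seed (bases 2 to 8, which pair with targets) in capitals. All are RefSeq sequences on GRCh38.p14, written 5′ to 3′, and all 9 members were matched by name.
hsa-let-7a-5p: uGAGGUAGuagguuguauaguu
hsa-let-7b-5p: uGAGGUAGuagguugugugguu
hsa-let-7c-5p: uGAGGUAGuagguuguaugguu
hsa-let-7d-5p: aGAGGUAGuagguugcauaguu
hsa-let-7e-5p: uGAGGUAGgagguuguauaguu
hsa-let-7f-5p: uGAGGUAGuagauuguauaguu
hsa-let-7g-5p: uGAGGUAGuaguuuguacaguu
hsa-let-7i-5p: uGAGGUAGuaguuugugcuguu
hsa-miR-98-5p: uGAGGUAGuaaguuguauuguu
All 9 share the seed GAGGUAG and are 22 nt long. Counting from 1 at the 5′ end and writing the base of let-7a first, let-7c differs from let-7a by A19G, let-7e by U9G and let-7f by G12A. let-7i stands farther off, with 4 substitutions (G12U, A17G, U18C and A19U). let-7b and let-7c differ by 1 base (G17A, let-7b first). How reads with a sequencing error at such a base were counted is not given in the sources used here, so levels of let-7a, let-7b, let-7c, let-7e and let-7f are uncertain to that extent.

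The hairpins differ where DROSHA cuts. Those of both group I members and of let-7a-2 are set here beside 3 from group II, with the annotated 5p and 3p arms in capitals and the loop and flanks in lower case.
let-7c hairpin: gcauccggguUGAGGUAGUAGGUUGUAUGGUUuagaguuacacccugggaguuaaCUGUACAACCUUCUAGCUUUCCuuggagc
let-7e hairpin: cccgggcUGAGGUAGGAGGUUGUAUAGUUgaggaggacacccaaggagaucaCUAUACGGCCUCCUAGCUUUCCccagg
let-7a-2 hairpin: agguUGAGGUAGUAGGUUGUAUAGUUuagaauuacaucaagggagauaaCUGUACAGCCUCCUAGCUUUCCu
let-7b hairpin: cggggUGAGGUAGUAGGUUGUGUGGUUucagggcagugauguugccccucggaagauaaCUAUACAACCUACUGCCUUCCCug
let-7g hairpin: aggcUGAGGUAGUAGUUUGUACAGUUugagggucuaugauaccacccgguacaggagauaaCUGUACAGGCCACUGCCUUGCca
let-7i hairpin: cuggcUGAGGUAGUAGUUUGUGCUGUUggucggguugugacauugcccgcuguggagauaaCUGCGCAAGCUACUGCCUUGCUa
In minimum free energy folds of all 12 family hairpins the first base of the 5p arm was unpaired. The base just before it was also unpaired in 3 of 3 group I hairpins and in 0 of 9 group II hairpins. In 7 of the 9 group II hairpins the unpaired base faced no unpaired base on the other strand (a bulge), against 0 of 3 in group I. The arms lay 23 nt apart in each group I hairpin and 26 to 36 nt apart in the 8 group II hairpins for which both arms are listed. These are predicted folds and annotated ends, not measurements in these cells.

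On GRCh38 the hairpins lie as follows, with hosts from GENCODE 29. MIRLET7C (chromosome 21, 16539828 to 16539911) is in an intron of the long noncoding RNA MIR99AHG. MIRLET7E (chromosome 19, 51692786 to 51692864) is in an intron of SPACA6. MIRLET7A2 (chromosome 11, 122146522 to 122146593) is in an intron of MIR100HG. Of group II, MIRLET7I (chromosome 12, 62603686 to 62603769) is in an intron of a noncoding gene and MIRLET7G (chromosome 3, 52268278 to 52268361) in an intron of WDR82. MIRLET7A1, MIRLET7F1 and MIRLET7D (chromosome 9, from 94175957 to 94178920) form 1 cluster, MIRLET7A3 and MIRLET7B (chromosome 22, from 46112749 to 46113768) another in exons of MIRLET7BHG, and MIR98 and MIRLET7F2 (chromosome X, from 53556223 to 53557274) the last in an intron of HUWE1.

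Library totals in the table ranged from 132667 to 407461 reads, and the 9 members together had from 864 to 29825 reads per library. DROSHA mRNA is not measured in libraries of 19 to 24 nt RNA, so neither the knockout nor the level of each DROSHA form could be checked. In such bulk libraries, fewer transfected cells and less product per cell cannot be told apart. Of 8 intestinal epithelial marker miRNAs all had reads, most of them few, with a summed level of 85.5 to 117 scaled reads per empty-plasmid library, 151 to 249 for wild type, 203 to 316 for m4 and 137 to 381 for the belt deletion. Of 9 markers of other cell types 6 had reads and miR-124-3p, miR-133a-3p and miR-223-3p had none. Their summed level was 216 to 292 in empty-plasmid libraries, 479 to 696 in wild-type ones, 325 to 630 for m4 and 569 to 785 for the belt deletion, and its part in the results was not tested. Scaled reads, used throughout, are counts divided by a size factor taken from hairpins that mature without DROSHA, such as miR-320 and mirtrons.

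Without DROSHA, let-7 reads were scarce, and supplying the wild-type enzyme raised all 9 members. Their summed level was 810.1, 601 and 587 scaled reads in the 3 empty-plasmid libraries and 35466, 29979 and 20396 in the 3 wild-type libraries, a 43.0-fold difference of the means. let-7i made up 81.8% of the wild-type sum on average, so this fold is weighted toward let-7i. Rises of single members ran from 4.72-fold (let-7c) to 70.1-fold (let-7i). As a share of all miRNA reads the family went from 0.320 to 0.432% per library with the empty plasmid to 8.40 to 10.5% with wild type. Of the 9 members 9 were called higher with wild type (edgeR quasi-likelihood test, adjusted p under 0.05), against 44.7% of the 318 miRNAs tested. The median log2 change was 3.88 for the members and 0.86 for all miRNAs tested. let-7d, let-7e and miR-98 had from 2 to 11 reads in the empty libraries and passed the filter on low counts through the other groups.

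hsa-let-7i-5p was the most abundant member in every library. It stood at 417, 291 and 298 scaled reads with the empty plasmid and at 29934, 24201 and 16381 with wild type. The groups were far apart, and the log2 change of 6.13 (SE 0.41, adjusted p = 1.52e-21), 70.1-fold, exceeded that of every other member. hsa-let-7g-5p, from a WDR82 intron, went from 76.7, 43.1 and 43.8 to 1897, 1903 and 1284 (4.96, SE 0.37, adjusted p = 2.39e-19). Its 31.0-fold rise was the second of the family. hsa-let-7f-5p, whose reads cannot be divided between its 2 hairpins, went from 128, 79.3 and 94.9 to 1955, 2009 and 1305 (4.12, SE 0.36, adjusted p = 1.11e-16). Wild type replicate 3 was the lowest wild-type library in these 3 members, as in all others except let-7c. In these 3 it still stood above every empty library, but the share of all miRNAs that separate in this way was not counted.

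The less abundant group II members rose as well. hsa-let-7b-5p went from 39.1, 25.7 and 27.2 to 375, 410.1 and 301 scaled reads (3.56, SE 0.37, adjusted p = 1.75e-13). hsa-let-7d-5p went from 6.02, 2.09 and 7.30 to 71.3, 73.8 and 56.3 (3.67, SE 0.48, adjusted p = 8.49e-10). hsa-miR-98-5p went from 5.27, 5.56 and 3.32 to 85.6, 77.3 and 49.6 (3.88, SE 0.44, adjusted p = 2.74e-12). For these 3 the wild-type and empty libraries did not overlap, but the share of all miRNAs that separate in this way was not counted.

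The 2 group I members differed in their starting levels. hsa-let-7c-5p stood at 9.78, 17.4 and 8.63 scaled reads with the empty plasmid and 46.4, 64.8 and 59.7 with wild type, a rise of 2.24 (SE 0.41, adjusted p = 1.96e-06). At 4.72-fold this was the smallest rise of the family, and the empty-plasmid mean was already 21.0% of the wild-type mean. hsa-let-7e-5p had 6.77, 1.39 and 3.98 with the empty plasmid (9, 2 and 6 reads) and 74.9, 149 and 67.6 with wild type (4.55, SE 0.48, adjusted p = 2.08e-13). Its estimated 23.4-fold rise was exceeded only by those of let-7i and let-7g among the 9, but it rests on those few empty-plasmid reads. hsa-let-7a-5p, from hairpins of both groups, went from 121.9, 136 and 99.6 to 1027, 1090.1 and 893 (3.07, SE 0.33, adjusted p = 4.11e-13).

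**Figure D1:**
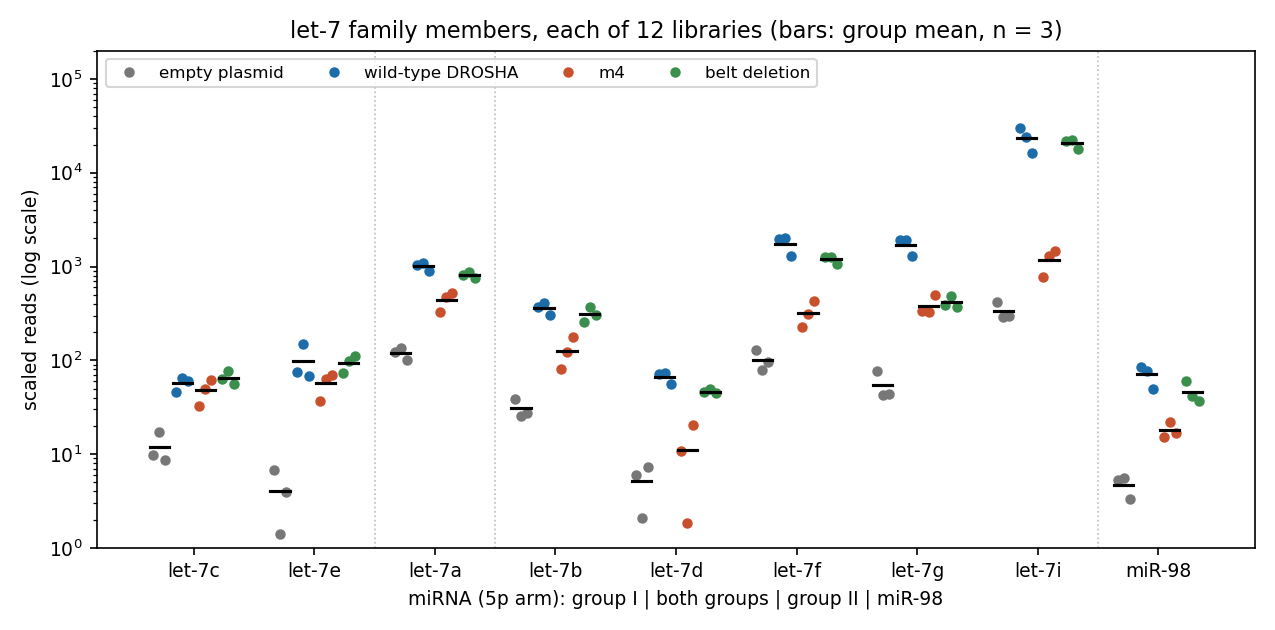
Scaled reads (log scale, counts divided by the size factor) of each let-7 family member in each of the 12 libraries, with group I, let-7a, group II and miR-98 separated by dotted lines; points are libraries and bars are means of 3. The m4 points of let-7c overlap those of wild type, as does the highest m4 point of let-7e. Those of let-7i lie between 773 and 1456, far below the wild-type range of 16381 to 29934.

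The m4 form restored part of the family. Comparisons that name the same group share its 3 libraries, so their values are set side by side and not counted as independent. With m4 the family sum was 1836, 2655 and 3240.0 scaled reads, 3.87-fold above the empty plasmid and 11.1-fold below wild type. The 11.1-fold difference is weighted toward let-7i, which made up 81.8% of the wild-type sum on average. Of the 9 members 8 were called higher than with the empty plasmid (edgeR), against 40.9% of all miRNAs tested. Against wild type 7 of 9 were called lower, with 35.8% of all miRNAs called lower. The 2 that were not called lower were the group I members let-7c and let-7e. The median log2 change against wild type was -1.96 for the members and -0.25 for all miRNAs tested.

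let-7i-5p showed the largest loss. It stood at 773, 1282 and 1456 scaled reads with m4, 20.1-fold below wild type (-4.33, SE 0.37, adjusted p = 1.01e-15) and 3.49-fold above the empty plasmid (1.80, SE 0.34, adjusted p = 7.97e-06). Its m4 mean was 4.98% of the wild-type mean. let-7d-5p had 10.7, 1.85 and 20.5 (10, 2 and 16 reads), which was lower than with wild type (-2.66, SE 0.46, adjusted p = 2.81e-06). Its m4 libraries overlapped the empty ones, and its rise over the empty plasmid was not called (1.02, adjusted p = 0.122). Without m4 replicate 2, which has only 2 reads, that rise was called (1.59, adjusted p = 0.00779), and with the summed reference as the scaling it was called too (1.78, adjusted p = 0.016), which makes 9 members. Without m4 replicate 3 it was 0.23 (adjusted p = 0.829). The change against wild type was -2.09 without m4 replicate 2 and -3.45 without m4 replicate 3.

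The other group II members had smaller changes against wild type, and whether these differ from those of let-7i and let-7d was not tested. let-7f-5p stood at 226, 315 and 425 scaled reads with m4 (-2.45 against wild type, SE 0.33, adjusted p = 3.73e-09). let-7g-5p stood at 333, 323 and 494 (-2.14, SE 0.33, adjusted p = 7.78e-08), and it rose further above the empty plasmid (7.02-fold) than let-7i. let-7b-5p stood at 80.5, 122.9 and 175 (-1.52, SE 0.34, adjusted p = 0.000152). In these 3 members every m4 library was below every wild-type library and above every empty one. miR-98-5p did the same at 15.0, 22.2 and 16.6 (-1.96, SE 0.39, adjusted p = 2.49e-05). How many of all miRNAs separate in this way was not counted. let-7a-5p, made from both kinds of hairpin, stood at 329, 475 and 521, or 44.0% of the wild-type mean (-1.18, SE 0.31, adjusted p = 0.000995).

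The group I members overlapped with wild type, let-7e only in that m4 replicate 3 (70.4 scaled reads) exceeded wild type replicate 3 (67.6). let-7c-5p had 32.2, 49.9 and 61.4 scaled reads with m4, which is 84.0% of the wild-type mean (-0.25, SE 0.38, adjusted p = 0.655). The approximate 95% interval of that difference ran from -0.996 to 0.50. let-7e-5p had 36.5, 62.8 and 70.4, or 58.1% of the wild-type mean (-0.77, SE 0.39, adjusted p = 0.108), with an interval of -1.54 to -0.01. Against the empty plasmid let-7e rose 13.7-fold with m4 (3.78, SE 0.47, adjusted p = 3.48e-10), and let-7c rose 3.97-fold (1.99, SE 0.41, adjusted p = 3.83e-05). The let-7e rise was the largest estimate of the family in that comparison, but it starts from 9, 2 and 6 empty-plasmid reads. Its approximate 95% interval of 2.85 to 4.70 overlapped that of let-7g, 2.15 to 3.48. let-7d and miR-98 were called lower with m4. Their wild-type libraries had 49.6 to 85.6 scaled reads, against 46.4 to 149 for let-7c and let-7e. The part of abundance in these calls was not tested. With library totals in place of the size factors the changes of let-7c and let-7e against wild type turn to 0.73 and 0.23, and let-7a and let-7b are no longer called (-0.17, adjusted p = 0.61, and -0.50, adjusted p = 0.187).

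**Figure D2:**
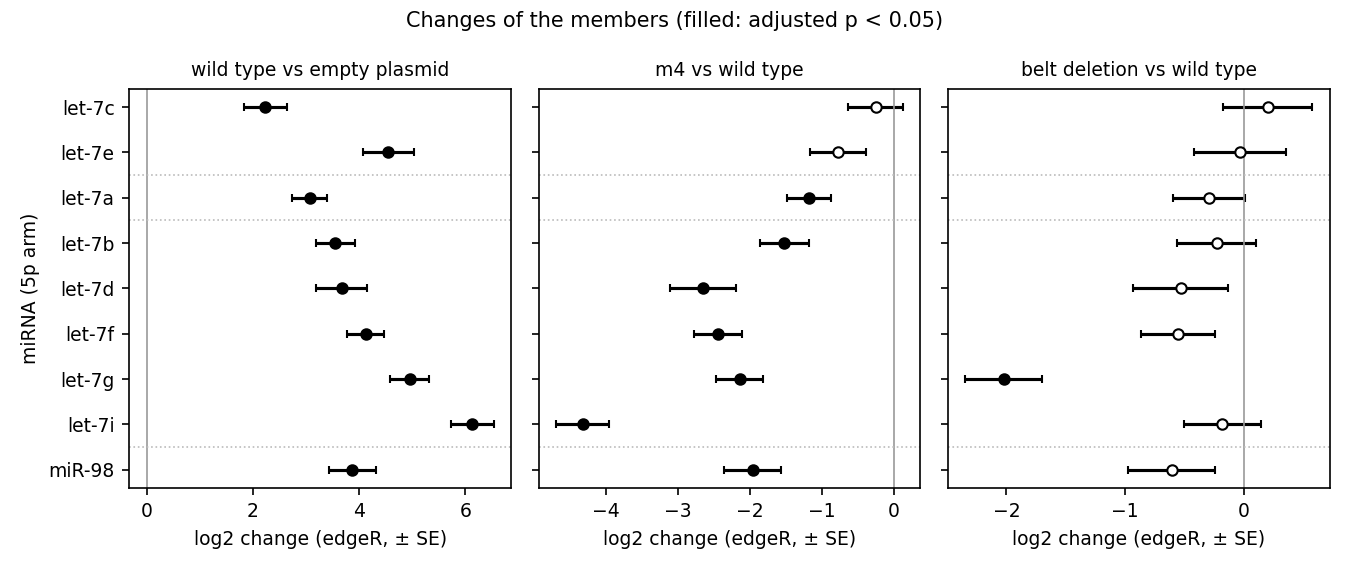
Log2 change ± SE of each member in 3 comparisons, from the edgeR fit over all 12 libraries; filled points have an adjusted p under 0.05. With m4 against wild type the change runs from -4.33 for let-7i to -0.25 for let-7c, and with the belt deletion against wild type let-7g is the filled point at -2.02.

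With the belt deleted the family sum returned to nearly that of wild type, and 1 member was called lower. let-7i made up 87.4% of that sum on average, against 81.8% with wild type, so it mainly reports let-7i. Member means ran from 24.6% (let-7g) to 115% (let-7c) of the wild-type mean. The sum was 24582, 25769.5 and 20829.7 scaled reads, 35.6-fold above the empty plasmid and 1.21-fold below wild type, and the libraries overlapped those of wild type. Against the empty plasmid 9 of 9 members were called higher (edgeR, 44% of all miRNAs tested). Against wild type 1 of 9 was called lower, let-7g, a share near the 9.43% of all miRNAs called lower. The median change against wild type was -0.30 for the members and 0.02 for all miRNAs.

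let-7g-5p stood at 391, 487 and 374 scaled reads with the belt deletion, all below the lowest wild-type library at 1284. How common such a separation is among all miRNAs was not counted. The change against wild type was -2.02 (SE 0.32, adjusted p = 1.36e-06), a 4.06-fold fall, and it ran from -2.19 to -1.90 over the scalings tried. Its difference from m4 was 0.12 (adjusted p = 0.885, approximate 95% interval -0.49 to 0.74), but with total counts as the scaling it was lower than with m4 (-0.92, adjusted p = 0.0118). let-7i-5p, by contrast, stood at 21623, 22513 and 18072, within the wild-type range (-0.18, adjusted p = 0.766, interval -0.82 to 0.45) and 17.7-fold above m4 (4.15, SE 0.37, adjusted p = 9.46e-15). Both come from group II hairpins and their mature arms differ by 2 bases. Whether their responses to the belt deletion differ was not tested in the fit.

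The other members with the belt deletion were not called against wild type. let-7a-5p stood at 819.9, 869 and 763 scaled reads, let-7b-5p at 255, 366 and 305, and let-7f-5p at 1250.0, 1269 and 1068. The changes of these 3 against wild type were -0.30 (adjusted p = 0.574), -0.23 (adjusted p = 0.719) and -0.55 (adjusted p = 0.261). let-7c-5p stood at 63.3, 77.8 and 55.5 and let-7e-5p at 73.9, 97.8 and 112, with changes of 0.20 (interval -0.53 to 0.94) and -0.03 (interval -0.79 to 0.72). let-7d-5p (45.7, 48.9 and 44.4) and miR-98-5p (60.7, 41.4 and 36.7) were at 69.0% and 65.3% of the wild-type mean without a call. For let-7a, let-7d and let-7f every belt-deletion library lay below every wild-type library, but the intervals of -0.89 to 0.30, -1.32 to 0.25 and -1.17 to 0.06 include 0. The share of all miRNAs that separate in this way was not counted. Set against m4, 6 of 9 members were called higher with the belt deletion (26.4% of all miRNAs), and let-7c (0.45), let-7e (0.74) and let-7g (0.12) were not called. This count fell to 2 with total counts and to 3 with the summed reference. The call of let-7a (0.89, adjusted p = 0.0202) was lost without m4 replicate 1 (0.0959), m4 replicate 2 (0.051), belt deletion replicate 1 (0.0791) or belt deletion replicate 2 (0.0768). That of miR-98 (1.35, adjusted p = 0.00432) was lost without belt deletion replicate 1 (0.0716).

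The contrast of group I with group II can be read within each library, where no size factor enters. The value used was the mean log2(reads + 1) of let-7c and let-7e minus that of let-7b, d, f, g and i. The added 1 read weighs on low counts, so depth still bears on this value. let-7e had 9, 2 and 6 reads in the empty-plasmid libraries, and let-7d had 2 in m4 replicate 2. In empty-plasmid libraries the value was -2.86, -2.61 and -2.90. Wild-type libraries gave -4.38, -3.62 and -3.74, those of m4 -2.00, -1.25 and -1.95, and those of the belt deletion -3.25, -3.11 and -2.99. On this value the groups did not overlap: group I was scarcest relative to group II with wild type and least scarce with m4. An exact permutation test over all ways to divide the 12 libraries into 4 groups of 3 gave p = 6.49e-05, which is the smallest it can give.

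Between m4 and wild type the ratio of group I to group II differed by 2.18 on the log2 scale (SE 0.34), 4.52-fold. Between m4 and the empty plasmid it differed by 1.06 (SE 0.26), and between the belt deletion and m4 by -1.38 (SE 0.26). Wild type differed from the empty plasmid by -1.12 (SE 0.25). The belt deletion differed from wild type by 0.80 (SE 0.25) and from the empty plasmid by -0.33 (SE 0.12). Each of the 6 pairwise exact permutation tests (two-sided, 3 against 3) gave p = 0.1, the smallest possible, and 0.1 after adjustment over the 6. With summed reads in place of mean logs the belt deletion differed from wild type by 0.33 (exact permutation p = 0.6). In that comparison the group II member let-7g changed by -2.02, and the ratio without let-7g was not computed. For m4 against wild type the value was 2.40 with let-7c alone and 1.95 with let-7e alone as group I, both chosen after seeing the data. Against the empty plasmid the 2 members parted. With let-7c alone the wild-type value was -2.23 and the m4 value 0.17, whereas with let-7e alone they were -0.02 and 1.94. Without let-7i the belt deletion differed from the empty plasmid by 0.22 in place of -0.33. That difference was -1.35 with let-7c alone and 0.70 with let-7e alone, so its direction depends on which members are taken.

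**Figure D3:**
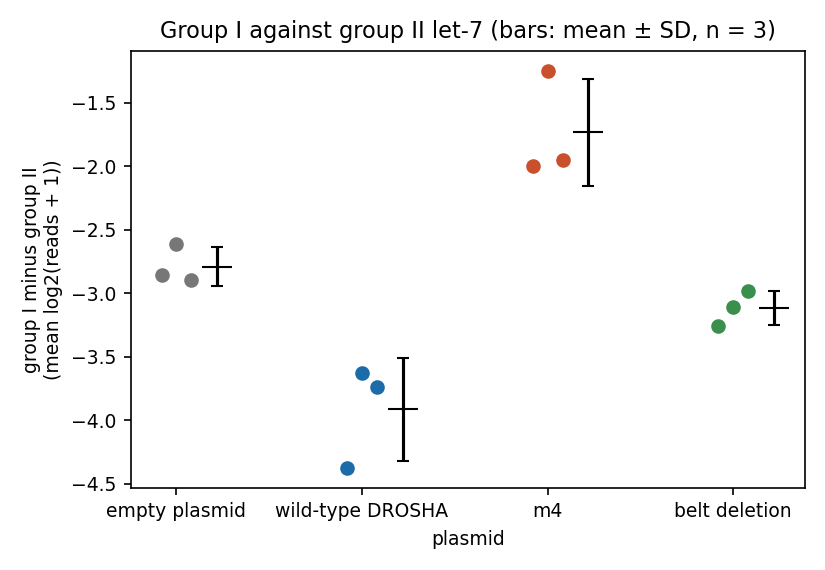
Mean log2(reads + 1) of group I (let-7c and let-7e) minus that of group II (let-7b, d, f, g and i) in each library, by plasmid; points are libraries and bars the mean ± SD of 3. The m4 libraries (-2.00 to -1.25) lie above all others and the wild-type libraries (-4.38 to -3.62) below all others.

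The make-up of the family changed with these differences. let-7i-5p was 50.2% ± 1.61 (SD, n = 3) of the family's reads in empty-plasmid libraries, 81.8% ± 2.25 for wild type, 45.1% ± 3.10 for m4 and 87.4% ± 0.600 for the belt deletion. let-7g-5p was 15.2% ± 2.97 with m4 but 1.76% ± 0.153 with the belt deletion, against 5.996% ± 0.562 with wild type. let-7a-5p was 18.2% ± 3.91 with the empty plasmid and 17.3% ± 1.06 with m4, but 3.64% ± 0.740 in wild-type and 3.46% ± 0.179 in belt-deletion libraries. let-7e-5p was 2.18% ± 0.190 with m4 and 0.347% ± 0.144 with wild type. By exact permutation over the 4 groups, 8 of 9 shares differed after adjustment over the 9, with adjusted p-values from 0.000195 (let-7f, let-7g and let-7i) to 0.0111 (let-7e). let-7d-5p was the exception (adjusted p = 0.226), and without m4 replicate 2 its unadjusted exact p was 0.0103. Shares add up to the whole, so a change of let-7i moves all others.

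**Figure D4:**
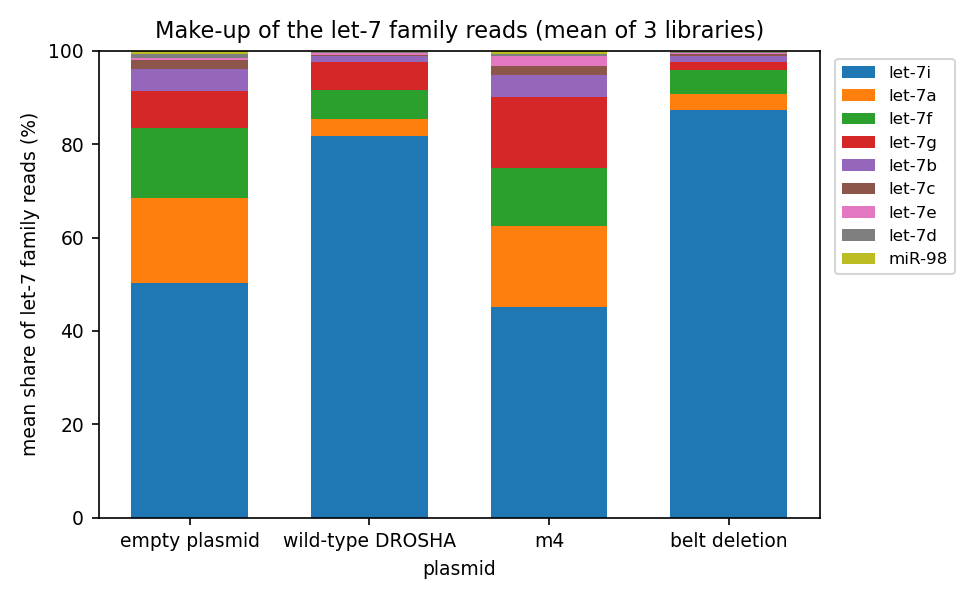
Mean share (%) of each member in the summed reads of the 9 members, by plasmid; each bar is the mean of 3 libraries. let-7i takes 81.8% in the wild-type and 87.4% in the belt-deletion bar, but 50.2% in the empty-plasmid and 45.1% in the m4 bar.

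The order of the members also differed between the groups, with the reservation that adaptor ligation favours some sequences, so counts of different miRNAs are not equal measures of abundance. With wild type let-7i was followed by let-7f, let-7g, let-7a and let-7b, and then by let-7e, miR-98, let-7d and let-7c. Neighbours from let-7e to let-7c overlapped in their ranges, as did let-7f and let-7g. With m4 the order was let-7i, let-7a, let-7g, let-7f, let-7b, let-7e, let-7c, miR-98 and let-7d. Here let-7c was above miR-98 in 3 of 3 libraries without overlap, while with wild type it was last. With the belt deletion let-7g stood below let-7a, again without overlap. Both placings were already present with the empty plasmid, where the order was let-7i, let-7a, let-7f, let-7g, let-7b, let-7c, let-7d, miR-98 and let-7e. There let-7c had 8.63 to 17.4 scaled reads against 3.32 to 5.56 for miR-98. let-7g had 43.1 to 76.7 against 99.6 to 136 for let-7a, so wild type is the group that differs in these placings.

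let-7c and let-7e each differ from the more abundant let-7a by 1 base, so their reads were set against its reads. let-7c had 8.02 to 12.8% as many as let-7a in empty-plasmid libraries, 4.51 to 6.69% in wild-type, 9.77 to 11.8% in m4 and 7.27 to 8.95% in belt-deletion libraries. The same percentages for let-7e were 1.03 to 5.56, 7.29 to 13.7, 11.1 to 13.5 and 9.01 to 14.7. For let-7c the wild-type range lay below the other 3. For let-7e the ranges of the 3 DROSHA groups overlapped, and its empty-plasmid values rest on 2 to 9 reads. The part of reads miscounted between these names was not tested.

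Some let-7 hairpins share a primary transcript with hairpins of the miR-10 superfamily. Of 5 such neighbours tested, 4 rose with wild type over the empty plasmid (44.7% of all miRNAs tested) and 3 fell with m4 against wild type (35.8% of all), so the second count is not far from the background. In the SPACA6 intron miR-99b-5p, 104 bp from let-7e, changed by -2.01 with m4 (SE 0.42, adjusted p = 0.000114) and miR-125a-5p, 389 bp away, by -1.28 (SE 0.40, adjusted p = 0.00676), where let-7e changed by -0.77 without a call. Whether these hairpins differ from let-7e was not tested. miR-100-5p, on the transcript of let-7a-2, changed by -1.69 (adjusted p = 2.45e-05). miR-99a-5p, on the transcript of let-7c (0.54, adjusted p = 0.517), and miR-125b-5p, made on the transcripts of both let-7c and let-7a-2 (-0.18, adjusted p = 0.758), were not called. With the belt deletion miR-99b-5p was called lower than with wild type (-1.79, adjusted p = 0.00131), as let-7g was. miR-4763, 28 bp from the let-7b hairpin, had 4 reads in all.

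Among 65 other miRNAs with a mean of at least 100 scaled reads, those whose log2 level over the 12 libraries was most like the family mean were miR-24-3p (r = 0.995), miR-10a-5p and miR-107 (both 0.993), and miR-182-5p and miR-183-5p (both 0.991). The libraries share the jump from empty plasmid to DROSHA, which by itself gives high values, so no p is attached. miR-24-3p stood at a mean of 36.2 scaled reads in empty-plasmid, 1271 in wild-type, 198 in m4 and 801 in belt-deletion libraries. Within the family r with the mean ran from 0.884 (let-7d) and 0.894 (let-7c) to 0.994 (let-7b). That mean includes the member itself, which raises r, so these values are not on a par with those of the other miRNAs.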

How the data were processed

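RNA of 19 to 24 nt, cut from a 15% gel loaded with 10 µg of total RNA, was cloned with a NEBNext small RNA kit, per the labels' protocols. The table deposited by the authors holds raw counts, 1 line for each hairpin and mature name, and its blanks were read as 0. cutadapt, Bowtie2 and hg38 are named in the submitters' processing notes. Versions, the counting tool, its annotation, and how reads matching more than 1 hairpin were assigned are not given in the sources used here. Names under several hairpins were collapsed to the line with most reads (the lines of let-7a and of let-7f differed by at most 5 reads), and 9 further names with over 120 reads that matched another name within 5 reads or 5% in each library were merged. That left 1277 miRNAs with 101887 to 332081 reads per library.

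Because DROSHA acts on most hairpins, size factors were median ratios over 5 features made without DROSHA, each with 20 reads or more per library: the summed miR-320 family, capped miR-484, and the mirtrons miR-877, miR-1226 and miR-1224. After scaling, their log2 changes ran from -0.68 (miR-484, belt deletion against empty) to 0.78 (miR-1224, belt deletion against wild type). Uncalled member changes such as -0.55 for let-7f (belt deletion against wild type) are no larger than this spread. The robust quasi-likelihood test of edgeR 4.0.16 in R 4.3.3 was fitted to all 12 libraries without covariates. filterByExpr kept 318 miRNAs, all 9 members among them, and p-values were adjusted by Benjamini-Hochberg over the 318. The SE comes from the change and its F statistic, and 95% intervals from the SE on a normal scale, so both are approximate. Ratios within a library were tested by exact permutation, as described with each result. Folds were predicted with ViennaRNA 2.7.2. The edgeR fit and the exact tests were tested on simulated data. Alternatives were TMM, total counts, the summed reference, DESeq2 1.42.0, no filter, summed lines, a replicate block and leaving out each library. All members are named, with their 3p arms, hairpins on the same transcripts, other names with the same seed, and the 5 most like miRNAs. The members and lists were chosen with earlier results of these data known.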

Additional observations from a re-analysis of the deposited data

How the results depend on the processing

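Scaling shifts the median of all miRNAs against the empty plasmid by up to -0.88 (TMM, wild type), and total counts shift m4 against wild type by 1.06 and the belt deletion against m4 by -0.99. All 9 members were called higher than with the empty plasmid for wild type and the belt deletion under each setting run, and 5 to 7 were called lower with m4 against wild type. Belt deletion against m4 was the exception. There 6 members were called higher, 2 with total counts (and 1 lower) and 3 with the sum of the reference, and let-7a and let-7g turned to -0.10 and -0.92 with total counts. Leaving out 1 library left 4 to 6. For the group I minus group II ratio, summed reads, which let-7i dominates, gave -2.50 for wild type, 0.71 for m4 and -2.17 for the belt deletion against the empty plasmid. They gave 3.21 and 0.33 for m4 and the belt deletion against wild type and -2.88 for the belt deletion against m4. Without let-7i wild type against empty was -0.72, belt deletion against empty 0.22 and belt deletion against m4 -0.83. A pseudocount of 5 gave 0.66 for m4 and -0.65 for the belt deletion against empty. With let-7c alone the 3 values against empty were -2.23, 0.17 and -1.35, and with let-7e alone -0.02, 1.94 and 0.70. The cause was not tested, other than what a setting leaves out. m4 against wild type ran from 1.93 to 2.32 without 1 library.

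With replicate number as a block, 9, 8 and 9 members were called higher than with the empty plasmid and 7 lower with m4 against wild type, and the block changed no call. Same-numbered libraries correlated by -0.245 to 0.134 in their deviations, with 2 of 18 pairs above 0.1, so no effect shared by number was seen. Whether same-numbered libraries were prepared together is not known. Depth limits let-7d, let-7e and miR-98, with 2 to 11 reads in empty libraries. Leaving out a library moves let-7d most: belt deletion against m4 was 2.90 and 1.55 without m4 replicates 3 and 2.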

Other observations

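The 3p arms of the let-7 hairpins, which are mostly discarded when the 5p arm enters Argonaute, were near the limit of detection. let-7a-3p, from let-7a-1 and let-7a-3, had 155 reads over the 12 libraries and let-7d-3p 46. let-7f-2-3p had 23, let-7e-3p 20, miR-98-3p 7, let-7i-3p 6, let-7b-3p 3, let-7f-1-3p 2, let-7g-3p 1 and let-7c-3p 0. let-7a-2-3p, the only arm that marks the group I hairpin of let-7a, had 4 reads, so the source of let-7a could not be divided between its hairpins. let-7a-3p had 19 reads over the 3 empty-plasmid libraries, 64 over the wild-type, 13 over the m4 and 59 over the belt-deletion libraries. let-7e-3p had 0, 11, 3 and 6 in the same order. Of 7 hairpins with their own 5p name, let-7b, let-7g and let-7i had at least 20 reads of both arms together in every library. Their 3p to 5p ratios gave exact permutation p-values over the 4 groups of 0.0192, 6.49e-05 and 0.00123 (adjusted 0.0192, 0.000195 and 0.00185), and that of let-7b was 0.0594 and 0.0545 without empty replicates 2 and 3. With 3, 1 and 6 reads of the 3p arm in all, the added pseudocount of 1 read sets these ratios, so the p-values reflect the 5p counts and say nothing about arm choice. The other names with the let-7 seed in RefSeq, miR-4458 and miR-4500, had 5 reads and 1 read in all.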
